A study of Saccharomyces cerevisiae with 21 samples.

Results

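The stretch described here is the part of the NGD-CGA reporter in which ribosomes stall and line up: the HIS3 sequence just upstream of 12 consecutive CGA codons, and those CGA codons themselves. It comprises nt 838 to 1146 of the reporter, counted from the first nt of its start codon, so 309 of the 1586 positions of the deposited traces, or 103 codons. Positions below use an axis on which 0 is the first nt of CGA codon 2 (nt 1114) and upstream positions are negative. On it the HIS3 part, called the queue here, runs from -276 to -4 (273 nt, 91 codons) and the CGA tract from -3 to 32 (36 nt, 12 codons). The choice of these positions rests on the sequence alone and not on any measured value.

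Translation that halts on a difficult codon run leads following ribosomes to collide with the halted one, and no-go decay (NGD) acts on the mRNA under the collided ribosomes. In yeast Hel2 is an E3 ligase that recognizes collided ribosomes, Slh1 is a helicase of the complex that takes stalled ribosomes apart, and Cue2 is the endonuclease that cleaves the mRNA in NGD. Dom34 rescues ribosomes that have run to the end of a broken mRNA, and Ski2 is the helicase that feeds mRNA to the exosome, which degrades it from the 3′ end. CGA is an arginine codon that the yeast ribosome decodes poorly, and consecutive CGA codons are a standard way to stall it.

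Ribosome-protected fragments (RPFs) of the reporter were sequenced from 15 monosome libraries of 8 strains. All strains derive from BY4741, lack *SKI2* and carry the reporter, driven by the galactose-inducible GAL1 promoter and integrated at *ADE2*. The strains are *ski2Δ*, *slh1Δ ski2Δ*, *dom34Δ ski2Δ*, *slh1Δ dom34Δ ski2Δ*, *cue2Δ dom34Δ ski2Δ*, *cue2Δ slh1Δ dom34Δ ski2Δ*, *hel2Δ dom34Δ ski2Δ* and *hel2Δ slh1Δ dom34Δ ski2Δ* and were all grown in galactose medium. The controls of every comparison thus lack Ski2 too. Each strain has 2 libraries except *ski2Δ*, which has 1. For *cue2Δ slh1Δ dom34Δ ski2Δ*, 2 were used for 16 nt RPFs and 1 for the longer ones. The second library's columns for longer RPFs were left out. Nothing states that the libraries of a strain came from separate cultures, so SDs and p-values cover only the spread between these libraries. Lysates were made with cycloheximide and tigecycline and digested with RNase I, and 3 lengths are told apart. A 16 nt RPF is taken to come from a ribosome at the cut 3′ end of an mRNA, and its 3′ end is plotted. A 21 nt RPF comes from a ribosome with an empty A site and a 28 nt RPF from one with an occupied A site, and for both the A site is plotted.

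The HIS3 part was read in 9 segments of 30 nt, about the footprint of 1 ribosome, numbered from the tract outwards, with 3 nt at the far end left over. The native HIS3 gene (YOR202W, 663 nt) has the same 91 amino acids, His3 residues 2 to 92, but only 224 of the 273 nt are identical (82.1%), so nearly all queue reads can be placed on the reporter. The segments are printed because most results turn on single codons within them. Capitals mark the 2 codons of each segment with the most 16 nt RPFs in *slh1Δ dom34Δ ski2Δ*, and in the tract CGA codons 2 to 5, the last codons at which every strain had 21 nt RPFs in quantity.
segment 9, -273 to -244: gaacaaaaggcattggttaagcgtATTACT
segment 8, -243 to -214: aacgaaACCaagattcaaattGCCatctct
segment 7, -213 to -184: ttgAAGggtggtCCAttggccattgaacac
segment 6, -183 to -154: tccatcTTCccagaaaagGAAgctgaagct
segment 5, -153 to -124: GTTgctgaacaagccactcaatccCAAgtc
segment 4, -123 to -94: attaacgtccacactGGTATTggtttcttg
segment 3, -93 to -64: GACcacatgattcacgctttggccAAGcac
segment 2, -63 to -34: tccggttggtccttgATCgttGAAtgtatt
segment 1, -33 to -4: ggtGACttgcacATTgacgaccaccacacc
CGA tract, -3 to 32: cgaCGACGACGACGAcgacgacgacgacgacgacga

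Library depths ran from 1261876 to 15416759 reads with a median of 10636068, and the 309 positions held 347 to 62544 reads of 16 nt, 2131 to 31328 of 21 nt and 6905 to 143510 of 28 nt. A value of 3 reads corresponded to 0.195 to 2.38 rpm. The shallowest library of *cue2Δ slh1Δ dom34Δ ski2Δ* (replicate 3) and replicate 1 of *hel2Δ slh1Δ dom34Δ ski2Δ* stood apart: 55.3% and 56.3% of their 28 nt A sites in the queue fell on nt 2 of a codon, against 65.3% to 76.1% in the other 12 libraries. Because the tract repeats itself, reads lying wholly inside it cannot be placed. Such reads concern 21 of the 36 tract positions for 16 nt RPFs, 17 for 21 nt and 9 for 28 nt, and most of these positions hold 0 in all libraries. Levels are in rpm, reads scaled to the depth of the whole library, so that more RPFs per reporter mRNA and more reporter mRNA cannot be told apart in them. As a reference, the 810 nt of the reporter lying more than 300 nt upstream of the tract held 51.5 to 91.6 rpm of 28 nt RPFs per 30 nt by strain.

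The 28 nt RPFs were densest next to the tract in 7 of the 8 strains, and in *slh1Δ dom34Δ ski2Δ* the maximum lay in segments 3 and 4 instead. In segment 1, *ski2Δ* had 1026 rpm, *dom34Δ ski2Δ* 1207 and 992 rpm, and the 2 libraries without *SLH1* and *DOM34* 840.3 and 978.7 rpm. These strains overlapped next to the tract. In segment 3, *ski2Δ* had 427.9 rpm, *dom34Δ ski2Δ* 620.5 and 669.4 rpm, and *slh1Δ dom34Δ ski2Δ* 2276 and 2384 rpm. In segment 4 the same libraries had 249.7 rpm, 532.1 and 570.2 rpm, and 2512 and 2052 rpm. Both libraries of *slh1Δ dom34Δ ski2Δ* therefore lay above every other library in both segments, the next highest being a *hel2Δ slh1Δ dom34Δ ski2Δ* library with 1395 and 1455 rpm. Relative to the upstream level, segment 1 held 12.8 to 24.1 times as many 28 nt RPFs by strain. Segment 3 held 44.0 ± 3.57 times that level in *slh1Δ dom34Δ ski2Δ*, whereas *dom34Δ ski2Δ* reached 10.02 ± 1.51 times (SD, n = 2 each).

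**Figure D1:**
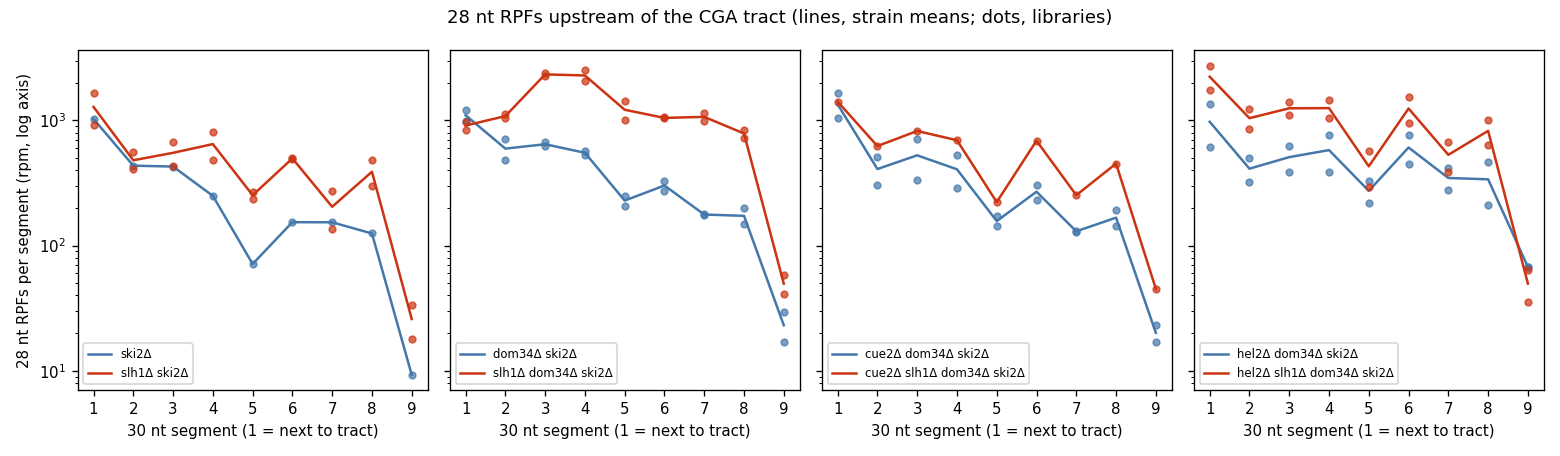
28 nt RPFs (rpm, log axis) in each 30 nt segment upstream of the CGA tract, segment 1 being next to it, with 1 panel per background. Dots are libraries, lines strain means, blue with *SLH1* and red without it. In the *dom34Δ ski2Δ* panel the red line peaks at segments 3 and 4 (2330 and 2282 rpm), while every line drops at segment 9.

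The decay with distance was steepest in strains with *SLH1* and *HEL2*. The slope of log2 rpm over segments 1 to 8 was -0.42 per segment in *ski2Δ*, -0.38 ± 0.04 in *dom34Δ ski2Δ* and -0.39 ± 0.07 in *cue2Δ dom34Δ ski2Δ*. It was shallower than these in 3 strains without *SLH1*, at -0.24 ± 0.09 in *slh1Δ ski2Δ*, -0.24 in *cue2Δ slh1Δ dom34Δ ski2Δ* and -0.20 ± 0.02 in *hel2Δ slh1Δ dom34Δ ski2Δ*. In the *hel2Δ* pair the order was turned: *hel2Δ dom34Δ ski2Δ*, with *SLH1*, had -0.14 ± 0.00, with 974.8 ± 520 rpm in segment 1 and 338.5 ± 179 rpm in segment 8. The slope was -0.07 ± 0.01 in *slh1Δ dom34Δ ski2Δ*, the shallowest of the 8, where segment 8 still held 726.4 and 844.4 rpm. The slopes are descriptions without a test. The planned slope was that over all segments, given below, and leaving out segment 9 was not planned. The decline was not smooth in any strain: segment 5 was lower than segment 6 in 13 of the 14 libraries, the exception being replicate 1 of *slh1Δ dom34Δ ski2Δ*.

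Segment 9 was low everywhere. It held 9.30 rpm in *ski2Δ*, 58.4 and 40.9 rpm in *slh1Δ dom34Δ ski2Δ*, and 67.9 and 67.4 rpm in *hel2Δ dom34Δ ski2Δ*, which was 0.12 to 1.34 times the upstream level by strain. The 30 nt before it, -306 to -277, held 21.5 to 84.6 rpm. Segments 1 to 8 exceeded the upstream level in each strain, apart from segment 5 in *ski2Δ* (71.4 rpm, 0.89 times), and segment 9 did so in *hel2Δ dom34Δ ski2Δ* alone. With segment 9 included, the slopes steepened to between -0.60 (*ski2Δ*) and -0.28 (*hel2Δ dom34Δ ski2Δ*), and *slh1Δ dom34Δ ski2Δ* came to -0.36 ± 0.03. The place of the shallowest slope then passed to *hel2Δ dom34Δ ski2Δ*.

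To ask where loss of *SLH1* changed 28 nt occupancy, strains with and without it were compared in the 4 backgrounds *ski2Δ*, *dom34Δ ski2Δ*, *cue2Δ dom34Δ ski2Δ* and *hel2Δ dom34Δ ski2Δ*, as the mean difference of log2(rpm + 0.1). Occupancy was higher without *SLH1* in 8 of 9 segments, against 51.9% of the 52 segments of the whole reporter that were higher and 67.3% that differed in either direction, with limma and a Benjamini-Hochberg adjusted p of 0.05 as threshold. Only segment 1, next to the tract, did not pass, with 0.34 ± 0.32 (SE, adjusted p = 0.336). The differences in segments 2 to 9 were 0.76, 1.06, 1.34, 1.33, 1.48, 1.12, 1.65 and 0.80. The median over the 9 segments was 1.12 and over all 52 it was 0.52.

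By background, the most segments were called in *dom34Δ ski2Δ*. There 7 of 9 segments rose, where 57.7% of the reporter's segments differed, with 2.59 ± 0.38 in segment 7 (adjusted p = 3.66e-09) and 2.39 ± 0.38 in segment 5 (adjusted p = 3.23e-08). Segment 1 had -0.27 ± 0.58 (adjusted p = 0.664) and segment 2 had 0.88 ± 0.46 (adjusted p = 0.0848). In *ski2Δ* 4 segments rose (38.5% of the reporter's segments differed), namely 5, 6, 8 and 9. In *cue2Δ dom34Δ ski2Δ* 2 rose (46.2%), namely 6 and 8, and in *hel2Δ dom34Δ ski2Δ* 3 rose (23.1%), namely 2, 3 and 8. Segment 8 was the one segment called in all 4 backgrounds, by 1.60 ± 0.49, 2.19 ± 0.40, 1.45 ± 0.49 and 1.36 ± 0.40. In the *ski2Δ* and *cue2Δ dom34Δ ski2Δ* backgrounds 1 arm had a single library, taken to vary like the other strains. The difference between the *dom34Δ ski2Δ* effect and the mean of the other 3 passed the test in segment 7, at 1.96 ± 0.46 (adjusted p = 0.00142), and in no other segment of the reporter (1.92% of 52).

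**Figure D2:**
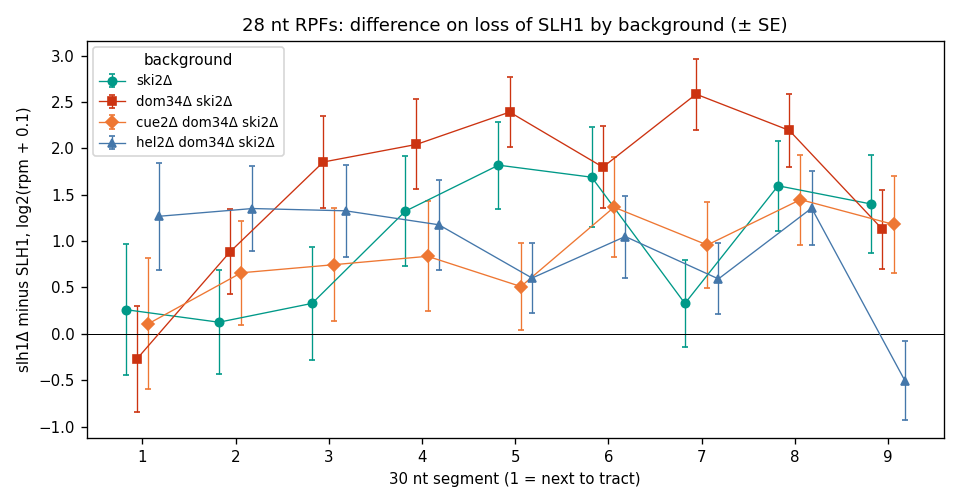
Difference in 28 nt RPFs on loss of *SLH1*, on the log2(rpm + 0.1) scale, in each 30 nt segment and background, with bars for ± 1 SE from the fit. In *dom34Δ ski2Δ* the values climb from -0.27 in segment 1 to 2.39 in segment 5 and 2.59 in segment 7, whereas all 4 backgrounds lie above 1 in segment 8.

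Within the *slh1Δ* strains, segments 5 and 7 were called in each comparison of *slh1Δ dom34Δ ski2Δ* with its relatives, though not always alone. Loss of *CUE2* from it lowered segment 5 (222.7 rpm against 1430 and 1001 rpm, a difference of -2.43 ± 0.47, adjusted p = 2.01e-05) and segment 7 (252.8 rpm against 1152 and 981.8 rpm, -2.07 ± 0.47, adjusted p = 0.000355), where 3.85% of the reporter's segments differed. The *CUE2* value rests on 1 library, the shallowest. Loss of *HEL2* from *slh1Δ dom34Δ ski2Δ* lowered the same 2 segments, by -1.55 ± 0.38 (adjusted p = 0.00312) and -1.05 ± 0.38 (adjusted p = 0.0358), with 21.2% differing over the reporter. For *HEL2* these 2 of 9 queue segments are near the share of the whole reporter. Loss of *DOM34* from *slh1Δ ski2Δ* raised segments 3, 4, 5 and 7 by 2.12, 1.86, 2.25 and 2.46 (11.5% over the reporter). These comparisons share the 2 *slh1Δ dom34Δ ski2Δ* libraries and are not independent of each other.

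The share of queue 28 nt RPFs that lay in segment 1 does not use the scale to library depth. It was 38.7% in *ski2Δ*, 31.9% and 26.1% in *dom34Δ ski2Δ*, and 39.2 ± 0.45% in *cue2Δ dom34Δ ski2Δ*. It was 7.53% and 9.43% in *slh1Δ dom34Δ ski2Δ*, the lowest of all libraries, and 23.1 ± 3.25% to 29.05 ± 4.45% in the other strains. Strains without *SLH1* had a share 10.1 percentage points lower on average (p = 0.0154, two-sided exact permutation test within backgrounds, 324 arrangements, smallest possible p 0.00309). By background the difference was -9.65 points in *ski2Δ*, -20.5 in *dom34Δ ski2Δ*, -12.2 in *cue2Δ dom34Δ ski2Δ* and 2.03 in *hel2Δ dom34Δ ski2Δ*, so the direction did not hold in the last. Within the first deposited set the mean was -12.6 and within the second -5.91. The call was lost with the segments moved by 15 nt (-7.92 points, p = 0.0525), with a replicate block (-10.4 points, p = 0.0938) and without the shallow *cue2Δ slh1Δ dom34Δ ski2Δ* library (-9.37 points, p = 0.0833, all exact permutation tests).

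At the level of single nt, the strains shared some of the 28 nt peaks. The highest position of each segment, by the mean over strains, was -20 (ATT), -41 (GAA), -71 (GCC), -104 (ATT), -152 (GTT), -173 (CCA), -207 (GGT), -233 (AAG) and -251 (CGT), and 8 of these 9 lay on nt 2 of their codon. Gaps between neighbours were 21, 30, 33, 48, 21, 34, 26 and 18 nt, so these peaks were not evenly spaced. Taken strain by strain, the highest position of a segment was at the same nt in all 8 strains only in segment 9 (-251). It was at -152, -173 and -233 in 6 of 8 strains, at -20, -41 and -104 in 5 and at -207 in 4. Segment 3 varied most, with 5 different nt, and -71 led it in *slh1Δ dom34Δ ski2Δ* alone. At -20 the libraries overlapped: 244.2 rpm in *ski2Δ*, 179.9 and 165.8 rpm in *dom34Δ ski2Δ*, and 197.1 and 219.3 rpm in *slh1Δ dom34Δ ski2Δ*. At -71, in the alanine codon GCC, they did not: *ski2Δ* had 19.8 rpm, *dom34Δ ski2Δ* 33.0 and 44.5 rpm, and *slh1Δ dom34Δ ski2Δ* 683.2 and 877.1 rpm, the highest 28 nt position of that strain. The remaining strains ranged from 11.2 to 114.5 rpm there. At -152 *slh1Δ dom34Δ ski2Δ* had 318.2 and 253.2 rpm against 20.1 to 162.7 rpm in all others, and at -207 it had 307.5 and 155.5 rpm against 4.29 to 71.7 rpm. At -173 (140.3 and 178.4 rpm) and -233 (125.5 and 128.9 rpm) it lay inside the range of the others, which reached 341.8 and 196.0 rpm in *hel2Δ slh1Δ dom34Δ ski2Δ*. The single *ski2Δ* library was highest at -23 (278.9 rpm), -20 and -59 (178.7 rpm).

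Codon by codon, 90 of 91 queue codons and 10 of 12 tract codons passed a minimum mean of 0.5 rpm, a filter that can favour codons high in 1 strain. Loss of *SLH1*, over the 4 backgrounds, raised 28 nt RPFs at 74 and lowered them at 1 of these 100 codons, with 46.9% of the 446 codons tested on the reporter differing. The share was lower at both ends of the queue, with 5 of 10 codons higher in segment 1, 5 of 10 in segment 2 and 4 of 9 in segment 9, and all 10 rose in segments 4, 6 and 8. The *dom34Δ ski2Δ* effect exceeded that of the other backgrounds at 3 codons and fell short of it at 1, with 0.897% and 0.224% of the 446 so called. The largest changes among codons that carry a named peak were at -72, the GCC codon (2.32 ± 0.30, adjusted p = 5.96e-06), at -105, the ATT codon (2.15 ± 0.32, adjusted p = 2.38e-05), and at -42, the GAA codon (2.03 ± 0.34, adjusted p = 7.13e-05). These codons were named from the same 28 nt values, and -71 led its segment in *slh1Δ dom34Δ ski2Δ* alone. The call at -72 therefore carries no weight of its own. At -72 the *dom34Δ ski2Δ* effect exceeded the mean of the other backgrounds by 2.61 ± 0.64 (limma, adjusted p = 0.0422). The value at -72 is thus not shared evenly by the 4 backgrounds. The codon that fell was the GGT at -60 (-1.15 ± 0.36, adjusted p = 0.0106). The ATT codon at -21 had 0.30 ± 0.36 (adjusted p = 0.523).

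The tract itself was read codon by codon. The 21 nt RPFs filled CGA codons 2 to 5 in each strain, and codon 1, with 2.41% to 4.61% of the reads of codons 1 to 5 by strain, held few. Next came codons 7 to 11, where reads cannot be placed. Codons 7 to 10 were blank, and codon 11 held reads in 2 libraries alone. This stretch was bordered by codon 6 and by codon 12, the last of the tract. Each of these 2 edges has 1 nt at which reads are not unique. At codon 12 strains with and without *SLH1* parted: *ski2Δ* had 2.47 rpm, *dom34Δ ski2Δ* 10.9 and 10.3 rpm, and *cue2Δ dom34Δ ski2Δ* 11.4 and 10.4 rpm. Without *SLH1*, *slh1Δ ski2Δ* had 89.0 and 126.3 rpm, *slh1Δ dom34Δ ski2Δ* 92.4 and 121.2 rpm, and *cue2Δ slh1Δ dom34Δ ski2Δ* 151.4 rpm. The *hel2Δ dom34Δ ski2Δ* libraries lay between, at 45.6 and 45.7 rpm, and *hel2Δ slh1Δ dom34Δ ski2Δ* had 113.6 and 193.0 rpm. Every library without *SLH1* thus exceeded every library with it. The mean difference was 3.54 ± 0.31 (adjusted p = 5.98e-09). By background it was 5.37 in *ski2Δ*, 3.30 in *dom34Δ ski2Δ* and 3.79 in *cue2Δ dom34Δ ski2Δ*, all past the threshold, and 1.70 in *hel2Δ dom34Δ ski2Δ* (adjusted p = 0.222).

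The ratio of reads at codon 12 to those at codons 1 to 5 does not depend on library depth. Expressed as a percentage it was 0.43% in *ski2Δ* (34 against 7949 reads), 3.29% and 1.68% in *dom34Δ ski2Δ*, and 3.26% and 0.83% in *cue2Δ dom34Δ ski2Δ*. In *hel2Δ dom34Δ ski2Δ* it was 11.2% and 10.8%. Without *SLH1* it ran from 15.5% (95% Wilson interval 14.8% to 16.2%, counting error only) in a *hel2Δ slh1Δ dom34Δ ski2Δ* library to 20.1% (17.2% to 23.4%) in *cue2Δ slh1Δ dom34Δ ski2Δ*. The 7 libraries without *SLH1* therefore fell in a narrow band above the 7 with it, and among the latter the *HEL2*-deleted libraries were the highest.

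**Figure D3:**
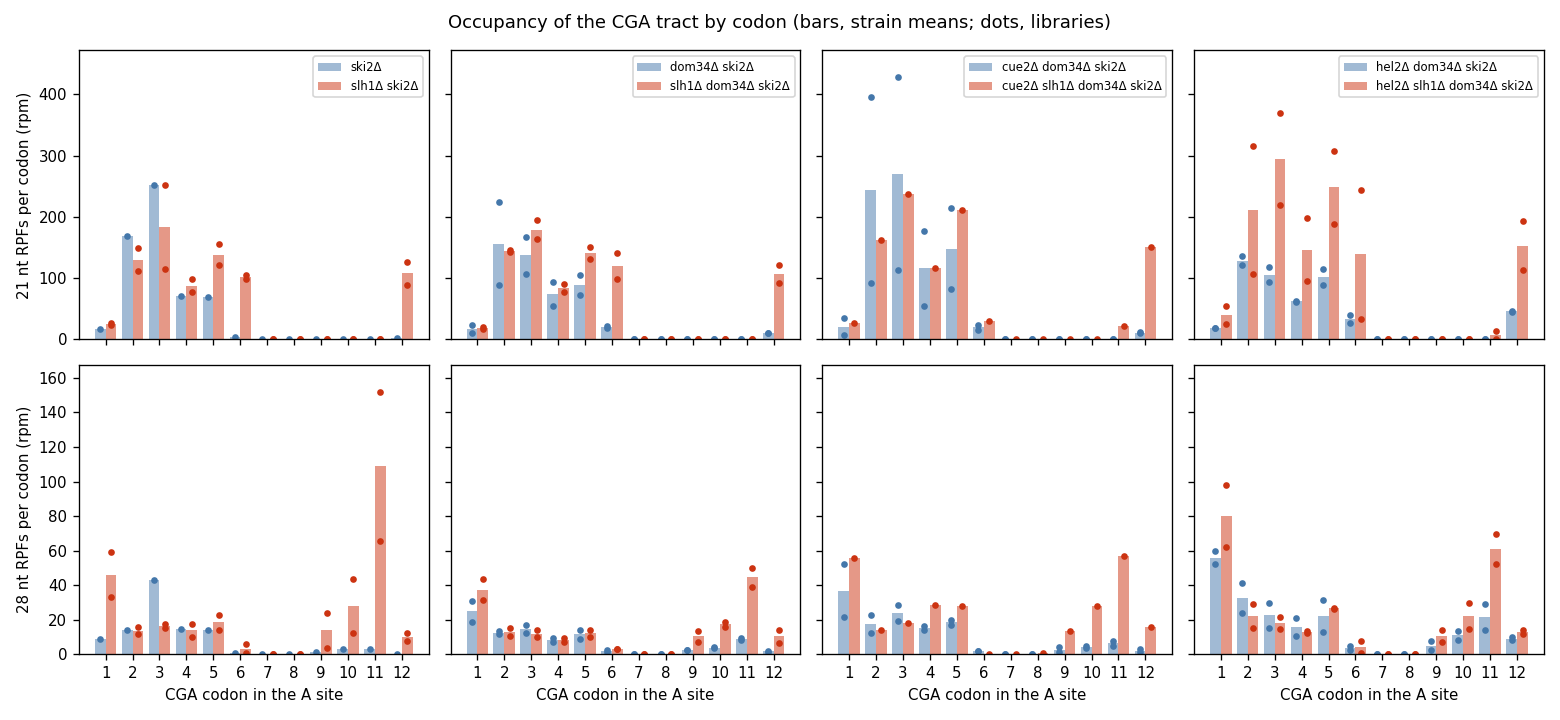
21 nt (top) and 28 nt (bottom) RPFs at each of the 12 CGA codons (rpm, A site), with 1 column per background. Bars are strain means, dots libraries, blue with *SLH1* and red without it; codons 7 to 10 are blank for 21 nt RPFs because reads there cannot be placed. At codon 12 the 21 nt bars rise from 10.6 to 106.8 rpm in *dom34Δ ski2Δ*, and at codon 11 the 28 nt bars from 8.81 to 44.6 rpm.

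At codon 6 the 21 nt RPFs were 3.78 rpm in *ski2Δ* and 98.5 and 104.5 rpm in *slh1Δ ski2Δ*. They were 26.3 and 40.4 rpm in *hel2Δ dom34Δ ski2Δ*, 18.4 and 21.6 rpm in *dom34Δ ski2Δ* and 98.5 and 141.0 rpm in *slh1Δ dom34Δ ski2Δ*. The 2 shallow libraries differed from the rest of the *slh1Δ* libraries, with 30.1 and 34.0 rpm, inside the range of *hel2Δ dom34Δ ski2Δ*, while the second *hel2Δ slh1Δ dom34Δ ski2Δ* library had 243.4 rpm. They were also the 2 with 21 nt RPFs at codon 11 (21.4 and 14.5 rpm, against 0 in all others), so the difference at codon 11 (2.84 ± 0.79, adjusted p = 0.00834) rests on them. Reads at each nt of codon 11 are not unique, so these RPFs cannot be placed there with certainty. Its call is among the 32 below. At codon 6 the mean difference was 2.35 ± 0.38 (adjusted p = 7.69e-05), but the groups overlapped. The reads at codon 6 were 0.65% to 9.51% of those at codons 1 to 5 in libraries with *SLH1* and 3.99% to 23.3% in libraries without it, so this ratio overlapped where that of codon 12 did not. Codon 5 had 0.90 ± 0.35 (adjusted p = 0.0498), at the edge of the threshold, and codons 1 to 4 had 0.65, -0.01, 0.35 and 0.48 and did not pass. The share of codon 1 among codons 1 to 5 was 0.61 points higher without *SLH1* (p = 0.309, two-sided exact permutation test). Of the 87 queue and tract codons tested for 21 nt RPFs, 32 rose and 1 fell, where 19.5% of the 323 codons of the whole reporter rose and 35.3% differed. The codon that fell was the ATT at -21 (-1.26 ± 0.32, adjusted p = 0.0055). The median difference was 0.68 at these codons and -0.18 over all.

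The 28 nt RPFs drew the other side of this picture, with few reads at codons 2 to 5 and a peak at codon 11 in strains without *SLH1*. At nt 2 and 3 of codon 6, at codons 7 and 8 and at nt 1 of codon 9, 28 nt reads are not unique. The low values of codon 6 therefore do not measure its occupancy. At codon 11, *ski2Δ* had 3.20 rpm against 152.1 and 65.6 rpm in *slh1Δ ski2Δ*, and *dom34Δ ski2Δ* had 9.59 and 8.03 rpm against 50.0 and 39.1 rpm in *slh1Δ dom34Δ ski2Δ*. In the *cue2Δ* pair 7.72 and 4.98 rpm stood against 57.1 rpm, and in the *hel2Δ* pair 14.0 and 29.02 rpm against 52.5 and 69.8 rpm. No library with *SLH1* reached the lowest one without it. The mean difference was 3.00 ± 0.29 at codon 11 (adjusted p = 1.71e-07), with 2.15 ± 0.41, 2.21 ± 0.31 and 2.58 ± 0.31 at codons 9, 10 and 12, all past the threshold. Codon 1 also rose, by 1.02 ± 0.30 (adjusted p = 0.00722), from 9.08 rpm in *ski2Δ* to 33.1 and 58.9 rpm in *slh1Δ ski2Δ* and from 56.0 to 80.2 rpm between the *hel2Δ* strain means. Codons 2 to 6 did not pass, with values from -0.75 to 0.35.

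From CGA codon 6 to codon 12, 16 nt reads are not unique and cannot be placed. On codons 1 to 5 of the tract the 16 nt RPFs were few, and whether they come from cut mRNA ends was not tested. They lay on codons 2 to 5, with the most at codon 4 (11.1 to 31.2 rpm by strain), and none of the 4 tract codons that passed the filter was called by limma in any of the 5 comparisons of 16 nt RPFs, or had an unadjusted p under 0.05 in them. Within single backgrounds CGA codon 2, with 8.35 rpm in *cue2Δ slh1Δ dom34Δ ski2Δ* and 1.22 rpm in *slh1Δ dom34Δ ski2Δ*, was called higher on loss of *CUE2* (2.19 ± 0.91, adjusted p = 0.0475). It was also called higher on loss of *SLH1* from *cue2Δ dom34Δ ski2Δ* (3.66 ± 0.91, adjusted p = 0.0474), which had 0.38 rpm. Both calls use the *cue2Δ slh1Δ dom34Δ ski2Δ* libraries, whose SD at this codon was 8.37 rpm (n = 2). In the queue they depended on the strain. Their sum was 4994 ± 116 rpm in *slh1Δ dom34Δ ski2Δ*, 570 ± 3.18 rpm in *dom34Δ ski2Δ* (SD, n = 2 each) and 109 to 298 rpm in the other 6 strains.

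In *dom34Δ ski2Δ* the 16 nt RPFs were concentrated in the first ribosome length. Segment 1 held 299.6 and 337.6 rpm, or 52.4% and 59.5% of the queue's 16 nt RPFs. Segments 2 to 4 held 42.7 to 103.5 rpm each. The share was not particular to this strain, since *ski2Δ* had 52.6% in segment 1, at a lower level of 83.6 rpm. The libraries of the other strains had 19.4% to 49.5%. In *slh1Δ dom34Δ ski2Δ* segments 1 to 4 were of like height: 1080 and 986.7 rpm, 959.3 and 1390 rpm, 898.4 and 1359 rpm, and 1140 and 627.4 rpm. Segment 1 was then 21.99% and 19.4% of the sum. Beyond it, segment 5 dropped to 99.0 and 118.2 rpm, segment 6 recovered to 542.7 and 365.0 rpm and segment 8 had 21.5 and 26.1 rpm. From segment 4 to 5, 16 nt RPFs were lower in all 15 libraries. The slope over segments 1 to 8 was -0.86 ± 0.08 log2 per segment in *dom34Δ ski2Δ*. In *slh1Δ dom34Δ ski2Δ* it was -0.70 ± 0.01 for these RPFs and -0.07 for 28 nt RPFs. Over all segments these values, in the same order, were -0.95 ± 0.08, -0.87 ± 0.03 and -0.36 ± 0.03.

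**Figure D4:**
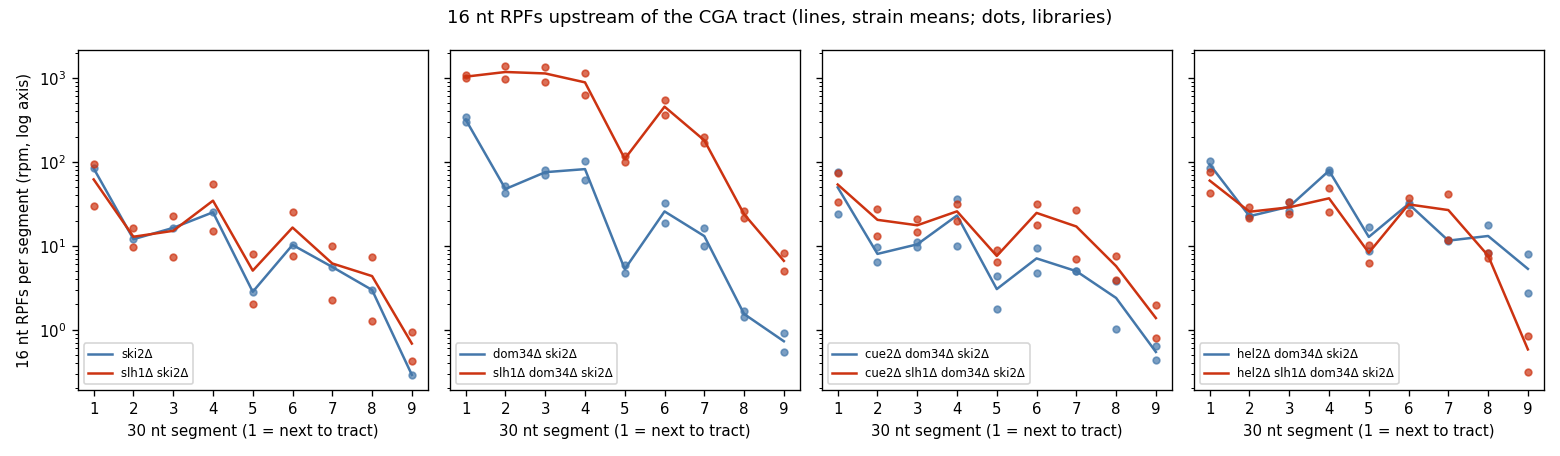
16 nt RPFs (rpm, log axis, 3′ ends) in each 30 nt segment, drawn as for 28 nt RPFs, with dots for libraries and lines for strain means. In the *dom34Δ ski2Δ* panel the red line (without *SLH1*) stays between 883.8 and 1175 rpm across segments 1 to 4 and dips at segment 5 to 108.6 rpm. The blue line (with *SLH1*) falls from 318.6 to 47.5 rpm between segments 1 and 2.

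These ends followed the reading frame in the 2 strains with most of them. The 3′ end lay on nt 1 of a codon for 89.8 ± 3.01% of the queue 16 nt RPFs in *dom34Δ ski2Δ*, and *slh1Δ dom34Δ ski2Δ* had 91.5 ± 0.85%. In the other strains, including *slh1Δ ski2Δ* and the *cue2Δ* and *hel2Δ* strains, it was 49.7% to 64.9%. The 5 highest positions held 60.4 ± 7.67% and 52.0 ± 3.67% of the reads in these 2 strains and 27.2% to 45.4% in the others. Of the ends on codon starts, 41.2 ± 3.16% lay on A in *slh1Δ dom34Δ ski2Δ*, while 29.7% of queue codons begin with A. In *dom34Δ ski2Δ*, 43.7 ± 1.64% lay on G, with which 35.2% of the codons begin. A few positions carry most of these shares, so they describe those positions rather than a preference.

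Within segment 1 the 2 strains differed in which codon led. In *dom34Δ ski2Δ* it was the GAC at -30, aspartate, with 134.9 and 166.9 rpm, and the ATT at -21, isoleucine, had 24.4 and 21.1 rpm. In *slh1Δ dom34Δ ski2Δ* the GAC at -30 had 201.7 and 154.1 rpm and the ATT at -21 had 683.0 and 678.0 rpm. Over whole codons, reads at -30 divided by reads at -21 gave 5.40 and 7.91 in *dom34Δ ski2Δ*, whereas *slh1Δ dom34Δ ski2Δ* gave 0.30 and 0.23. The other 11 libraries, some with few reads there, gave 0.13 to 0.90. Reads at -30 outnumbered those at -21 in the *dom34Δ ski2Δ* libraries alone.

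Further out, the highest 16 nt position of each segment in *slh1Δ dom34Δ ski2Δ* was -21, -42 (GAA), -69 (AAG), -105 (ATT), -129 (CAA), -165 (GAA), -210 (AAG), -235 (ACC) and -249 (ATT). The gaps were 21, 27, 36, 24, 36, 45, 25 and 14 nt. At -42 the strain had 734.5 and 926.3 rpm against 22.9 and 27.9 rpm in *dom34Δ ski2Δ* and 0 to 10.9 rpm elsewhere. At -69 it had 255.5 and 785.8 rpm, so its own libraries were far apart, against 25.0 and 45.1 rpm in *dom34Δ ski2Δ*. At -105 it had 499.9 and 209.0 rpm against 49.3 and 32.7 rpm. In *dom34Δ ski2Δ* the highest positions of segments 2, 3, 4 and 6 were the same nt, -42, -69, -105 and -165, and so was that of segment 8, -235, at under 1 rpm.

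For tests, 59 of 91 queue codons passed the minimum (50 without the *slh1Δ dom34Δ ski2Δ* libraries) and 4 of 12 in the tract, so codons that passed only through that strain had to differ. The counts that follow are descriptions to be read against the whole reporter. Loss of *DOM34* from *ski2Δ* raised 16 nt RPFs at 6 of the 63 codons, with 6.15% of 130 called over the reporter. They included -30 (5.77 ± 1.07, adjusted p = 0.00239), -69 (5.65 ± 1.30, adjusted p = 0.00815) and -42 (4.91 ± 1.06, adjusted p = 0.0061). *ski2Δ* had 1 library, whose spread was taken from the other strains, and a fit of these 2 strains alone called none of them, with 20 at an unadjusted p under 0.05. Loss of *DOM34* from *slh1Δ ski2Δ* raised 55 of 63 (64.6% over the reporter), by a median of 4.51 against 3.39 over all 130. The *DOM34* effect itself was larger without *SLH1* than with it at 8 of the 63 codons (8.46% over the reporter), of which only the ATT at -21 lay in segment 1.

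Loss of *SLH1* from *dom34Δ ski2Δ* raised 50 of 63 codons (52.3% over the reporter). In segment 1, 2 of 8 rose, the tract had 0 of 4, and in segments 2 to 9 it was 48 of 51. Among codons that passed the filter without the *slh1Δ dom34Δ ski2Δ* libraries, the counts were 2 of 8, 0 of 4 and 39 of 42. Next to the tract the GAC at -30 had 0.25 ± 0.87 (adjusted p = 0.874), although the ATT at -21 rose by 4.87 ± 0.77 (adjusted p = 0.000334). The largest increase was at -153, the GTT codon that opens segment 5, with 6.87 ± 1.12 (adjusted p = 0.000334), followed by -177 with 6.29 ± 1.02 (adjusted p = 0.000334), the TTC codon of segment 6. The codon at -153 passed the filter only through the *slh1Δ dom34Δ ski2Δ* libraries and so had to differ, whereas -177 also passed without them. Median differences were 0.79 in segment 1 and 2.29 to 4.37 in segments 2 to 9.

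Loss of *CUE2*, averaged over the *dom34Δ ski2Δ* and *slh1Δ dom34Δ ski2Δ* backgrounds, lowered 50 of 63 codons (47.7% over the reporter). Background by background, it lowered 9 of 63 in *dom34Δ ski2Δ* (6.92% over the reporter) and 49 in *slh1Δ dom34Δ ski2Δ* (54.6%). The largest averaged difference was the GAA at -42 (-6.74 ± 0.61, adjusted p = 1.65e-07), then the GAC at -30 (-5.98 ± 0.62, adjusted p = 5.21e-07) and the AAG at -69 (-5.90 ± 0.75, adjusted p = 4.47e-06). All 26 codons tested in segments 2 to 4 fell in the average. Loss of *HEL2* in the same way lowered 31 of 63 (25.4%), led by -30 (-6.03 ± 0.62, adjusted p = 1.15e-06) and -42 (-4.42 ± 0.61, adjusted p = 2.63e-05). In *dom34Δ ski2Δ* alone 2 codons fell (1.54% over the reporter), -30 (-5.79 ± 0.87, adjusted p = 0.000265) and -27 (-4.96 ± 0.77, adjusted p = 0.000265), and in *slh1Δ dom34Δ ski2Δ* 45 fell (45.4%). The remaining 16 nt RPFs of *hel2Δ dom34Δ ski2Δ* were spread, with 30.4% and 32.1% in segment 1, where *cue2Δ dom34Δ ski2Δ* had 49.5% and 36.4%. All comparisons involving *dom34Δ ski2Δ* or *slh1Δ dom34Δ ski2Δ* share those libraries. Of the 26 codons in segments 2 to 4, those at -120, -117 and -78 passed the filter only through the *slh1Δ dom34Δ ski2Δ* libraries. They had to differ and carry no weight of their own. The counts for *CUE2* and *HEL2* include such codons, and no counts without them are given.

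Spacing between ribosomes was described by shifting the traces against each other. When the 28 nt RPFs per codon were correlated with themselves, shifted by 15 to 60 nt, the highest Pearson r fell at 30 nt in both *slh1Δ dom34Δ ski2Δ* libraries (r = 0.37 and 0.33, n = 81 codons) and at 30 nt in none of the other 12. Their r at 30 nt was not the highest of all, however, since it ranged from -0.13 to 0.39 in those 12, with 0.37 in *ski2Δ* and 0.39 in replicate 2 of *dom34Δ ski2Δ*. The codons share a library and a sequence, so r is given as a description. When 16 nt 3′ ends were set against 28 nt A sites by position, the highest r in both *slh1Δ dom34Δ ski2Δ* libraries was with the 28 nt A site 29 nt upstream of the 16 nt end (r = 0.38 and 0.54, n = 244 positions). No library of another strain had its maximum there, and a shift of 1 nt, which puts both kinds of RPF in the same codon, gave r = 0.18 to 0.63 in them. In *slh1Δ dom34Δ ski2Δ* the 1 nt shift gave r = 0.37 in replicate 1, close to its maximum, and 0.27 in replicate 2.

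The match at 29 nt upstream rested on 1 pair of peaks. The 16 nt end at -42 had 830.4 ± 136 rpm, and the 28 nt position 29 nt upstream, -71, had 780.1 ± 137 rpm (SD, n = 2), the highest positions of either kind in the strain. With -42 set to 0, r at 29 nt upstream was 0.14 and 0.18 and the maximum moved, and on a log2(rpm + 1) scale the highest r was at 1 nt in both libraries, with 0.37 and 0.42 at 29 nt upstream. Other 16 nt sites had a tall 28 nt position 29 nt upstream too, such as -69 (520.7 rpm) with -98 (342.1 rpm) and -165 (200.2 rpm) with -194 (142.3 rpm). The ATT sites did not: -21 (680.5 rpm) was matched by 43.6 rpm at -50 and -105 (354.5 rpm) by 19.99 rpm at -134. In *dom34Δ ski2Δ* the GAC at -30 (150.9 rpm) had 62.9 rpm 29 nt upstream.

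**Figure D5:**
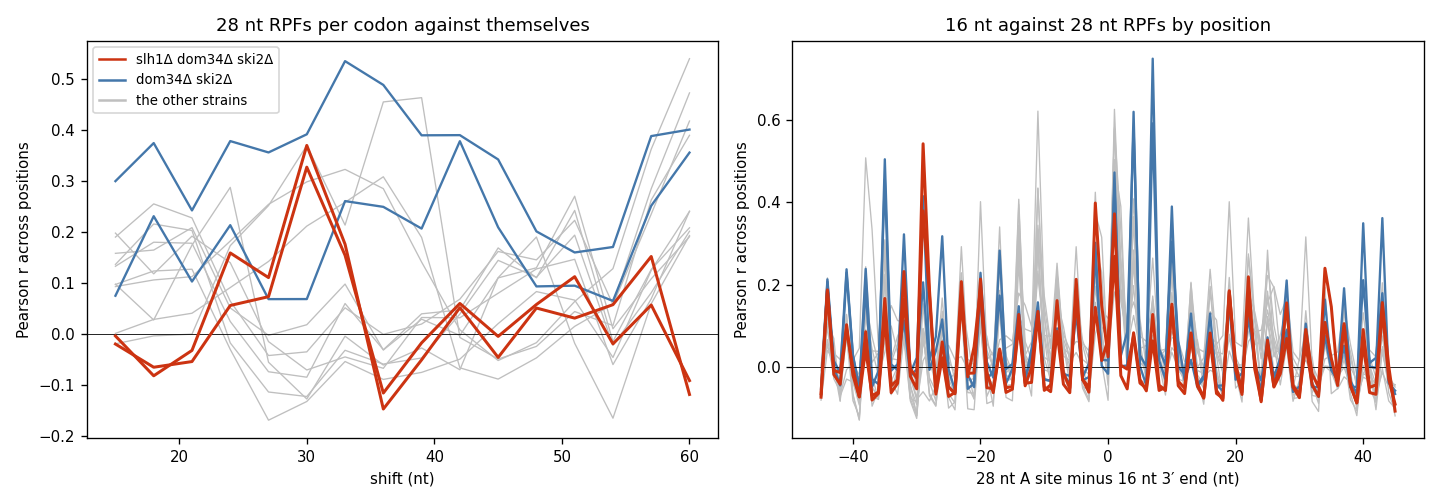
Pearson r between shifted traces in each library. Left, 28 nt RPFs per codon against themselves by shift (nt), where both *slh1Δ dom34Δ ski2Δ* libraries (red) peak at 30 nt. Right, 16 nt 3′ ends against 28 nt A sites by distance (nt), where the red lines peak at -29 nt; blue is *dom34Δ ski2Δ* and grey the other strains.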

How the data were processed

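RPFs from monosomes were sequenced in 15 libraries of 8 yeast strains, which were grouped by the genotypes in the labels. The authors called bases with CASAVA 1.8, trimmed reads with skewer 0.2.2 and mapped those with a single place in the genome and reporter with STAR 2.5.3a. They deposited depth-scaled reads (RPM, written rpm) at each nt of the reporter, as 3′ ends for reads of 15 to 17 nt and as A sites, 16 or 17 nt from the 5′ end, for reads of 20 to 22 nt and 27 to 32 nt. Here 43 value columns were used, and 14 columns of disomes, fragments treated in vitro and libraries whose name fits no sample were not used. A *cue2Δ slh1Δ dom34Δ ski2Δ* library carries a replicate number of the labels' other library, so its 16 nt values were used as a library of set 2 without a number. Its 21 and 28 nt columns were not used. The 21 and 28 nt values of this strain therefore rest on replicate 3, the shallowest library. One *slh1Δ dom34Δ ski2Δ* sample is labelled with longer fragments but has monosome columns, and was used as such.

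In every column 100% of values were whole reads within a tolerance of 0.1 reads, which gave depths of 1261876 to 15416759. Libraries of 1 strain differed by more than sampling (chi-square per degree of freedom 3.75 to 34.1), so none was counted as a repeat. Windows of 3 nt (codons) or 30 nt with a mean of at least 0.5 rpm were tested over the whole reporter in limma 3.58.1 (R 4.3.3, with trend) on log2(rpm + 0.1), all strains together, and p-values were adjusted over all windows by Benjamini-Hochberg with a threshold of 0.05. A fold on this scale understates changes of low codons. Reads recovered from the rpm were also fitted with edgeR 4.0.16 (quasi-likelihood). Shares were compared by exact permutation within backgrounds. The scripts were tested on simulated data. Named are the highest position of each segment, the tract codons, and the codons with the largest called difference of each comparison. Alternatives were other pseudocounts, no filter, scaling to reporter RPFs upstream, moved windows, a replicate block, edgeR, fewer strains and leaving out libraries. The members, lists and tests were chosen with earlier results of these data known. Same-numbered libraries were checked for shared deviations, and the numbers were not taken to pair them. For 28 nt RPFs, deviations were shared among *dom34Δ ski2Δ*, *slh1Δ dom34Δ ski2Δ* and *cue2Δ dom34Δ ski2Δ* (r = 0.46 to 0.65). The replicate block was run as an alternative for this reason.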

Additional observations from a re-analysis of the deposited data

Results flagged for a closer look

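The differences below were flagged because the effect of a deletion differed between backgrounds by a test of the difference itself (limma, interaction term, adjusted over the reporter); these comparisons were added after the data had been seen. Loss of *DOM34* raised 16 nt RPFs more without *SLH1* than with it at 8 of 63 codons (8.46% of 130 on the reporter), among them -153 (8.11 ± 1.78 on the log2 scale, adjusted p = 0.0159), -21 (5.47 ± 1.21, adjusted p = 0.0159) and -177 (5.52 ± 1.62, adjusted p = 0.0453), while -30 had -0.30 ± 1.38 (adjusted p = 0.851). Loss of *CUE2* lowered 16 nt RPFs more without *SLH1* than with it at 13 of 63 codons (11.5%), among them -42 (-5.59 ± 1.22, adjusted p = 0.0235) and -21 (-4.27 ± 1.08, adjusted p = 0.0235), while -30 had -0.82 ± 1.23 (adjusted p = 0.611). The 2 comparisons share libraries. Among the called codons, -153 and -192 (*DOM34*) and -153 and -249 (*CUE2*) passed the filter only through the *slh1Δ dom34Δ ski2Δ* libraries. Their calls follow in part from that filter and carry no weight of their own. Loss of *SLH1* raised 28 nt RPFs more in *dom34Δ ski2Δ* than in the mean of the other 3 backgrounds in 1 of 9 segments, segment 7. At codon level the same difference was called at 4 of 100 codons (1.12% of 446), higher at -198 (2.41), -75 (2.88) and -72 (2.61) and lower at -66 (-2.86). These counts moved strongly with the processing, as given in the next part.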

How the results depend on the processing

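The main direction held most of the called codons or segments under the alternatives run that called more than 1, while their number did not always hold. Pairing libraries by replicate number was only a check: deviations of same-numbered libraries correlated above 0.1 in 8 of 21 strain pairs for 16 nt RPFs (-0.34 to 0.41) and in 5 of 15 for 28 nt RPFs (-0.36 to 0.65, the highest between *dom34Δ ski2Δ* and *cue2Δ dom34Δ ski2Δ*), so the numbers were not taken to pair them. With the replicate block the codons called were 6 for *DOM34* with *SLH1* present, 51 for *SLH1*, 50 for *CUE2* and 31 for *HEL2* (16 nt), 36 for 21 nt and 75 for 28 nt RPFs, 8 for 28 nt segments and 4 for the *DOM34* difference, and the segment 1 share differed by -10.4 points (p = 0.0938, exact permutation, smallest possible 0.0313, 5 of 6 pairs lower).

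For *DOM34* with *SLH1* present the 6 codons became 0 with only the strains compared, and 4 to 8 leaving out 1 library. Leaving out 1 library gave 33 to 53 for *SLH1* with 16 nt RPFs (33 without replicate 2 of *slh1Δ dom34Δ ski2Δ*), 19 to 37 for *HEL2* (19 without replicate 2 of *hel2Δ dom34Δ ski2Δ*, 35 without replicate 3 of *cue2Δ slh1Δ dom34Δ ski2Δ* and 37 without its library of set 2), 39 to 57 for *DOM34* without *SLH1*, 41 to 51 for *CUE2*, 62 to 74 for 28 nt codons, 8 in each run for 28 nt segments and 15 to 37 for 21 nt codons (15 without replicate 3 of *cue2Δ slh1Δ dom34Δ ski2Δ*). A pseudocount of 1 rpm gave 45 for *HEL2* and edgeR 23 for 21 nt codons.

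Of the differences between backgrounds, the *DOM34* count of 8 became 47 with a pseudocount of 1 rpm, 1 without a filter, 18 with edgeR, 31 with only the strains compared and 0 to 33 leaving out 1 library (29 without the *cue2Δ slh1Δ dom34Δ ski2Δ* library of set 2). The *CUE2* count of 13 became 43 with that pseudocount, 4 without a filter, 22 per upstream reporter RPF, 4 with edgeR, 4 with only the strains compared and 0 to 26 leaving out 1 library. The 28 nt segment became 5 per upstream RPF, 0 with segments moved by 15 nt and 0 to 2 leaving out 1 library, and the 4 codons became 13, 0 (moved by 1 nt) and 0 to 7. The cause was not tested.

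The segment 1 share differed by -7.92 points with moved segments (p = 0.0525, exact permutation) and by -10.9 to -9.29 leaving out 1 library. The CGA codon 1 share differed by -0.11 points over codons 1 to 12 (p = 0.775, exact permutation), against 0.61, and by 0.25 to 0.91 leaving out 1 library. Reversed values, none past the threshold in either setting, were those of CGA codon 1 for 21 nt RPFs moved by 1 nt (-0.23), of codon 2 per upstream RPF (0.15), moved (0.21) and leaving out 1 of 7 libraries (over all libraries -0.28 to 0.25, with 0.0060 nearest to 0), and of codons 4 (-0.13) and 6 (0.47, over all libraries -1.43 to 0.47) for 28 nt RPFs without replicate 3 of *cue2Δ slh1Δ dom34Δ ski2Δ*. Of 1315 refits of the 63 named codons and segments, 1235 kept direction and side of the threshold, 53 lost the call, 15 gained it and 12 reversed. Depth limits the codons with few 16 nt RPFs, above all in the 2 shallow libraries.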
